A study of Mus musculus with 10 samples.

Results

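The 8 genes described here are the 4 reticulons (Rtn1, Rtn2, Rtn3 and Rtn4), the 3 Nogo receptors (Rtn4r, Rtn4rl1 and Rtn4rl2) and Rtn4ip1, which encodes a mitochondrial protein named for its binding to Rtn4. They are the rows of the deposited table of 23337 genes with those identifiers, and all 8 were present. The set was proposed after the comparison of knockout with heterozygote samples had been seen, and was chosen by the CPM values of the 10 samples, with Rtn4r as the gene of lowest ratio. That comparison is therefore given for the 8 genes as a description, without a test. Tests are given for genes outside the set: the partners of the 8 genes and their neighbours on the chromosome. The partner lists were themselves chosen with earlier results of these data known, so their counts are not independent of these data.

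RNA was measured in 10 samples of mouse heart muscle cells at postnatal day 14, after amplification of the cDNA by PCR. The samples are described as biological replicates, without saying whether each came from 1 mouse. In 5 samples both alleles of Actn2, the gene of the Z-line protein alpha-actinin-2, were floxed (genotype Actn2-FF, here knockout). In the other 5 a single allele was floxed (Actn2-F+, here heterozygote), and these are the controls. The mice of all 10 samples, controls included, had received AAV9-cTNT-Cre at postnatal day 1, a virus in which the cardiac troponin T promoter drives the Cre recombinase, so a control cell that the virus reached has 1 recombined Actn2 allele and no group is without Cre. Cells were freed with collagenase and sorted by fluorescence. The labels give no sex and no sequencing batch, and each sample carries its own number within its genotype.

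Total counts lay between 8086656 and 25237696 per sample. Actn2 was at 1145 to 1286 CPM in the knockout and 2677 to 3474 CPM in the heterozygote, where CPM is the read count per 1000000 reads of the library after TMM scaling. The 10 markers of cardiomyocytes, all above 1 CPM on average, summed to 115963 to 146746 CPM in the heterozygote and 111042 to 137207 CPM in the knockout. Among them, Mybpc3 was called higher in the knockout (edgeR adjusted p below 0.05, log2 fold change of knockout over heterozygote 0.43). Tnni3 and Atp2a2 were called lower (-0.53 and -0.40), and the others were not called. Endothelial markers (7 genes) summed to 413 to 611 CPM in the heterozygote and 269 to 450 CPM in the knockout, and fibroblast markers (7 genes) to 296 to 489 and 271 to 592 CPM. Markers of mural cells (6 genes) came to 162 to 271 and 190 to 287 CPM, and those of leukocytes (6 genes) to 11.05 to 27.8 and 6.14 to 9.47 CPM. The mural sum joins genes that differed in opposite directions. Cspg4 was at 26.5 to 43.8 CPM in the heterozygote and 106 to 159 CPM in the knockout. Cnn1 also had a higher mean in the knockout, while Myh11, Rgs5, Pdgfrb and Kcnj8 had lower ones. Neuronal markers, of which 6 of 7 had a row, summed to no more than 3.05 CPM, and 4 markers of glia to no more than 6.17 CPM.

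Reticulons are membrane proteins of the endoplasmic reticulum. Their shared C-terminal domain dips into the membrane as hairpins and bends it into tubules. Rtn4, known as Nogo, is best known from myelin, where an extracellular loop of it binds the receptor encoded by Rtn4r and stops growing axons. The receptor is held to the cell surface by a lipid anchor and signals through partners such as Ngfr, Tnfrsf19 and Lingo1. In muscle the endoplasmic reticulum is the sarcoplasmic reticulum, the calcium store of contraction.

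Across the family the knockout cells held far less Rtn4r and more Rtn4 than the heterozygote cells, while Rtn3 differed little. Rtn4r and Rtn4ip1 were lower in each knockout sample than in any heterozygote sample, and Rtn4 was higher in each knockout sample than in any heterozygote sample. The groups overlapped for Rtn1, Rtn2, Rtn3, Rtn4rl1 and Rtn4rl2. Thus 3 of the 7 members that passed the filter on low counts were apart, beside 14.7% of all 11870 tested genes (8.41% above and 6.32% below), and since this contrast chose the set nothing is read from that count. Rtn4rl2 did not pass the filter. Fewer cells of a type and less RNA per cell cannot be told apart in sorted bulk samples.

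**Figure D1:**
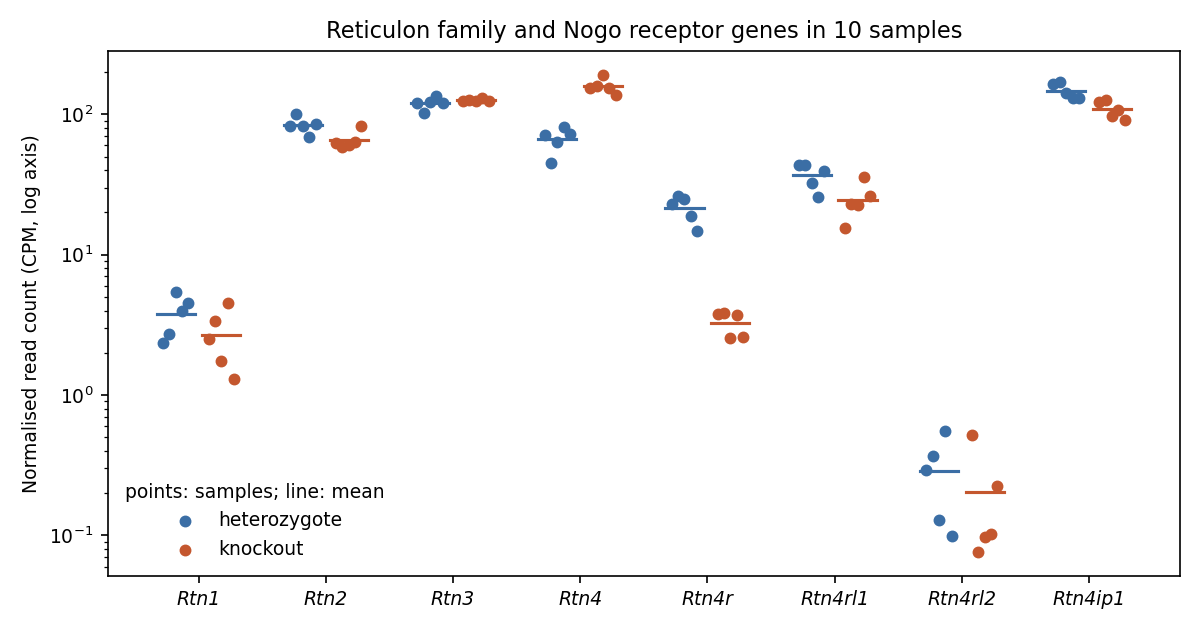
Normalised read counts of the 8 genes in each of the 10 samples, on a log axis in CPM (points, samples; lines, group means; n = 5 per group). The 5 knockout samples of Rtn4r lie between 2.54 and 3.82 CPM and the heterozygote samples at 14.9 CPM or more, while those of Rtn3 coincide.

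Rtn4r encodes the Nogo receptor, a protein of leucine-rich repeats. The gene lies at chr16:18127706-18152408 of mm10 on the plus strand, with 2 exons in the table. It was at 22.8, 26.0, 24.9, 18.8 and 14.9 CPM in heterozygotes 1 to 5, from 544, 212, 194, 169 and 151 reads. In knockouts 1 to 5 it was at 3.75, 3.82, 2.54, 3.69 and 2.60 CPM, from 36, 50, 26, 36 and 46 reads. No knockout sample came near the lowest heterozygote sample. The means were 21.5 ± 4.62 and 3.28 ± 0.651 CPM (SD, n = 5 each), and the log2 fold change of knockout over heterozygote was -2.71 (SE 0.196), a level of 0.152 of the controls. It ranked 15 from the bottom among the 11870 tested genes, in the values by which the set was found. With single samples left out it ran from -2.82 to -2.63.

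The 250 bases before the RefSeq start of Rtn4r (chr16:18127392-18127641 of GRCm38.p6, the assembly behind mm10, plus strand) are shown because this gene had the largest change of the set. RefSeq promoters were found for 7 of the 8 genes, all but Rtn4rl1. Each was searched on both strands for the CArG box, the MEF2 site, CATTCC (the core of the TEAD motif), the promoter element CCAAT, the core element TATAAA and the NRF1 palindrome, and capitals mark the matches.
Rtn4r: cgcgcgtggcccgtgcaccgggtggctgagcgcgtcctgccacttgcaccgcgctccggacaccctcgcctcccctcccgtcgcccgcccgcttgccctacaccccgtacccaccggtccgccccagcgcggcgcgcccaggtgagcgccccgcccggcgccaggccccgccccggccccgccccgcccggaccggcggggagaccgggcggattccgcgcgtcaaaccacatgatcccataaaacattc
None of the 6 motifs matched in this window, which says only that these letters are not in it. Among 32851 windows of the same length, 1.47% held a CArG box, 2.92% a MEF2 site, 12.6% CATTCC, 33.8% CCAAT, 12.4% TATAAA and 3.74% the NRF1 palindrome. The window had a GC content of 77.2%, higher than in 97.4% of all windows, whose median was 52.4%. Before the genes whose windows are not printed in full, CATTCC matched at Rtn1, Rtn2 and Rtn3. There CCAAT matched at Rtn1 and Rtn4ip1 and the NRF1 palindrome at Rtn3, while Rtn4rl2 had no match.

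Rtn4rl1 encodes a relative of the Nogo receptor that binds chondroitin sulfate proteoglycans. It lies at chr11:75193993-75267762 with 2 exons. Its levels were 43.4, 43.6, 32.3, 26.0 and 39.4 CPM in heterozygotes 1 to 5 and 15.6, 23.1, 22.4, 35.9 and 26.0 CPM in knockouts 1 to 5. Knockout 4 lay among the heterozygotes, knockout 5 was level with the lowest of them, and the other 3 knockouts lay below. The means were 36.9 ± 7.65 and 24.6 ± 7.38 CPM (SD, n = 5), with a log2 fold change of -0.59 (SE 0.195).

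Rtn4rl2, the receptor relative that binds myelin-associated glycoprotein, had 7, 3, 1, 5 and 1 reads in the heterozygotes and 5, 1, 1, 1 and 4 in the knockouts. A floor of 3 counts stood at 0.126 to 0.384 CPM across the 10 samples, so no difference was detectable at this depth. Per length, Rtn4r and Rtn4rl1 were at much the same level in the heterozygote, at 11.5 ± 2.46 and 11.2 ± 2.31 RPKM (CPM per kilobase of exon, SD, n = 5), with Rtn4r higher in 3 of 5 samples. In the knockout they were at 1.75 ± 0.347 and 7.45 ± 2.23 RPKM, and Rtn4rl1 was higher in 5 of 5. The ratio of Rtn4r to Rtn4rl1 was 1.06 ± 0.277 in the heterozygote and 0.255 ± 0.105 in the knockout. The 3 receptors together came to 18.3 to 27.4 RPKM in the heterozygote and 7.13 to 12.9 RPKM in the knockout, without overlap.

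Rtn4, which encodes the Nogo proteins, differed in the opposite direction from its receptor gene. It lies at chr11:29692898-29744414 on the plus strand. Heterozygotes 1 to 5 had 71.1, 45.3, 63.1, 81.5 and 73.0 CPM, and knockouts 1 to 5 had 153, 160, 192, 155 and 137 CPM. The lowest knockout thus stood well above the highest heterozygote. The means were 66.8 ± 13.7 and 159 ± 20.02 CPM (SD, n = 5). On the log2 scale the difference was 1.25 (SE 0.142), a level of 2.38 times that of the controls, and it ranked 223 from the top among the tested genes. With single samples left out it lay between 1.15 and 1.33. The ratio of Rtn4 to Rtn4r per length was 0.935 ± 0.364 in the heterozygote and 14.2 ± 4.16 in the knockout.

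Counts per gene sum over the Nogo isoforms. GENCODE lists 6 coding transcripts of Rtn4 from 4 start sites, the last of which lies 25.6 kb into the gene and gives the short muscle form, Nogo-C. The windows of 250 bases before the first and the last RefSeq start (chr11:29692648-29692897 and chr11:29718313-29718562, plus strand) are shown because reads from both starts enter the same Rtn4 count, with capitals as before.
Rtn4, first start: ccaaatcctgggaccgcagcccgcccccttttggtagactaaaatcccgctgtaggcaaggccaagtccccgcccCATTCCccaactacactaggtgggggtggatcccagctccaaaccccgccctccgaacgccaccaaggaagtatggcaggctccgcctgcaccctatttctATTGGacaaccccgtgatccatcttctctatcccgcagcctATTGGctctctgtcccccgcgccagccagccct
Rtn4, last start: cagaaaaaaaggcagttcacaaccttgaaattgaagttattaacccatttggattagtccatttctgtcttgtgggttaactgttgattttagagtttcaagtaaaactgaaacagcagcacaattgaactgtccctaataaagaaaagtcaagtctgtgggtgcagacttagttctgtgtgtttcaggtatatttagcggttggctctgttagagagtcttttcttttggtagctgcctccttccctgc
The first window held 1 CATTCC and 2 CCAAT in reverse, with a GC content of 61.2%. The last held none of the 6 motifs and had 39.2% GC. Of the 6674 exon bases of Rtn4, 1364 (20.4%) also belong to Eml6 on the opposite strand. Reads that overlap both genes were not counted for either, so the printed level of Rtn4 is too low by those reads. Eml6 was at 3.77 ± 1.07 CPM in the heterozygote and 4.79 ± 0.464 CPM in the knockout (SD, n = 5; edgeR adjusted p 0.297).

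Rtn2 and Rtn3 are reticulons found in many tissues, and Rtn2 is abundant in striated muscle. Rtn2 (chr7:19282667-19296160) was at 82.2, 101, 83.0, 68.9 and 86.0 CPM in heterozygotes 1 to 5 and 62.7, 58.9, 60.8, 63.4 and 82.3 CPM in knockouts 1 to 5. Knockout 5 lay among the heterozygotes while the other 4 knockouts lay below all of them. The means were 84.2 ± 11.4 and 65.6 ± 9.48 CPM (SD, n = 5), with a log2 fold change of -0.36 (SE 0.118) that became -0.45 without knockout 5.

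Rtn3, which also serves as a receptor for the removal of endoplasmic reticulum tubules by autophagy, was the steadiest of the set. Its level ran from 103 to 135 CPM in the heterozygote and from 124 to 131 CPM in the knockout. The SD was 9.36% of the mean in the heterozygote and 2.51% in the knockout, and the log2 fold change was 0.07 (SE 0.0870). Rtn1, the reticulon of neurons and neuroendocrine cells, was scarce, with 18 to 56 reads per sample. It was at 2.35, 2.70, 5.38, 3.996 and 4.53 CPM in heterozygotes 1 to 5 and 2.499, 3.36, 1.76, 4.52 and 1.30 CPM in knockouts 1 to 5, so the groups overlapped across most of their range. Its log2 fold change was -0.49 (SE 0.346). It became -0.75 without knockout 4 and -0.30 without knockout 5, and 0.18 when the mean log2 level of the 7 endothelial markers entered the model as a covariate. All 7 of these markers had a negative log2 fold change, from -0.65 to -0.38, and Egfl7 alone was called. The summed levels of the groups overlapped. The covariate ran from 5.73 to 6.36 in the heterozygotes and from 5.06 to 5.79 in the knockouts, so it was partly confounded with genotype. The part of endothelial cells in the Rtn1 value was not tested.

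Per length, Rtn2 was the leading reticulon in both genotypes, at 41.6 ± 5.62 RPKM in the heterozygote and 32.4 ± 4.68 RPKM in the knockout (SD, n = 5). Rtn3 followed at 23.9 ± 2.23 and 25.02 ± 0.627 RPKM. Rtn4 stood at 10.0 ± 2.05 RPKM in the heterozygote, below Rtn3 in 5 of 5 samples, and at 23.9 ± 3.0 RPKM in the knockout, where its range overlapped that of Rtn3. Rtn1 was lowest at 1.02 ± 0.340 and 0.724 ± 0.347 RPKM. This order rests on division by the exon bases of all isoforms, 2025 for Rtn2 and 6674 for Rtn4. The Rtn4 level also leaves out the reads shared with Eml6. In CPM, Rtn3 had the highest mean of the reticulons in the heterozygote (120) and Rtn4 in the knockout (159). In the heterozygote the levels of Rtn4r, Rtn4rl1 and Rtn4 overlapped one another and could not be ordered beyond their spread.

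The summed level of the 4 reticulons was 76.5 ± 1.78 RPKM in the heterozygote and 82.0 ± 3.08 RPKM in the knockout, a far smaller difference than that of Rtn4 alone. The groups did not overlap in this sum, at 74.1 to 78.6 RPKM in the heterozygote and 79.0 to 86.1 RPKM in the knockout. Rtn4 made up 8.73% to 16.5% of this sum in the heterozygotes and 23.9% to 34.2% in the knockouts, without overlap. The share of Rtn2 was 54.3% ± 6.41 and 39.4% ± 4.52, and that of Rtn3 was 31.3% ± 3.49 and 30.5% ± 1.46 (SD, n = 5). These shares rest on the same division by exon length.

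**Figure D2:**
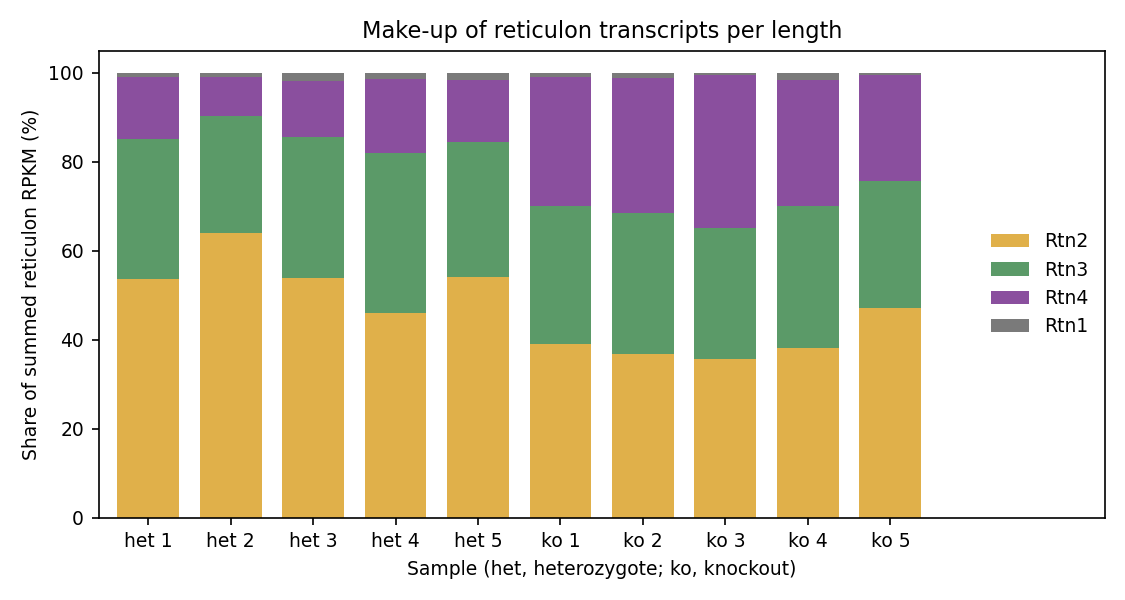
Share of Rtn1, Rtn2, Rtn3 and Rtn4 in their summed RPKM, in percent, for each heterozygote (het) and knockout (ko) sample. Rtn4 takes 8.73% to 16.5% of the bar in heterozygotes and 23.9% to 34.2% in knockouts, with the share of Rtn2 lower and that of Rtn3 about the same.

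Rtn4ip1 encodes a mitochondrial oxidoreductase that takes part in the making of coenzyme Q, and had the highest mean of the 8 genes per length in both groups, with ranges that overlapped those of Rtn2. In knockout 5 Rtn2 was higher, at 40.6 against 30.4 RPKM. It lies at chr10:43901807-43947862 on the plus strand. Levels were 164, 171, 141, 132 and 131 CPM in heterozygotes 1 to 5 and 122, 126, 97.6, 107 and 90.7 CPM in knockouts 1 to 5. The highest knockout was just below the lowest heterozygote. The means were 148 ± 18.5 and 109 ± 15.3 CPM (SD, n = 5), or 49.6 ± 6.22 and 36.5 ± 5.12 RPKM, and the log2 fold change was -0.44 (SE 0.117).

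Most other genes of coenzyme Q synthesis, a list of 13 that were all tested, fell. Of these, 10 were lower in the knockout by edgeR's quasi-likelihood test with Benjamini-Hochberg adjustment over all genes and 0 were higher, where 8.64% of all tested genes were called lower and 10.2% higher. Their median log2 fold change was -0.47, beside 0.00 over all tested genes. The list was chosen with earlier results of these data known, so this count is a description. Pdss1, a subunit of the enzyme that builds the isoprenoid tail, fell from 35.5 to 49.7 CPM in the heterozygotes to 19.7 to 29.0 CPM in the knockouts (log2 fold change -0.82, SE 0.128, adjusted p 0.000507). Some exon bases of Pdss1 also belong to Abi1. Pdss2, its partner subunit, fell by 0.68 on the log2 scale (adjusted p 0.00140). Coq9, which holds the lipid for the hydroxylation steps, was at 762 ± 113 and 461 ± 46.3 CPM (SD, n = 5; log2 fold change -0.73, edgeR adjusted p 0.000425). Coq10a (-0.73, adjusted p 0.00281), Coq6 (-0.62, adjusted p 0.000366) and Coq5 (-0.62, adjusted p 0.00430) fell as well. Coq10b, the most abundant of the 3 that were not called, was at 64.7 ± 32.7 and 59.3 ± 25.4 CPM. With the endothelial covariate 7 of the 10 calls were kept. Coq5 lost its call there at a log2 fold change of -0.65 (adjusted p 0.0520, range over the settings 7.12e-05 to 0.0520), Coq2 at -0.41 (adjusted p 0.132) and Coq7 at -0.26 (adjusted p 0.283). Coq7 also lost its call without heterozygote 4 or 5 and without knockout 1, 2, 4 or 5, at -0.31 to -0.26. The same held with library totals (-0.22, adjusted p 0.107), with no filter (-0.29, 0.0505) and with the replicate block (-0.30, 0.0643).

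Partners of the Nogo receptors ranged from genes without a read to Tspan3, the most abundant. Of a list of 17 ligands, co-receptors and other receptors, 16 had a row, 8 passed the filter and 1 was called, beside 18.9% of all tested genes. That gene, Nus1, encodes a receptor of Nogo-B that is also a subunit of the enzyme making dolichol. Nus1 was at 27.4 to 38.2 CPM in the heterozygotes and 21.8 to 26.9 CPM in the knockouts, without overlap (log2 fold change -0.37, SE 0.114, edgeR adjusted p 0.0363). The call was lost without heterozygote 3, 4 or 5 and without knockout 1, 2, 3 or 5, and the log2 fold changes with 1 sample left out ran from -0.41 to -0.28. It was also lost with library totals (-0.29, adjusted p 0.126), with no filter (-0.36, 0.0532), with the Y-linked covariate (-0.37, 0.0513) and with the endothelial covariate (-0.21, 0.498), over a range of adjusted p from 0.0151 to 0.498. With no filter Lgi1 was called lower instead (adjusted p 0.0487). Tspan3, a membrane protein that binds another stretch of Nogo-A, was at 412 ± 42.3 and 421 ± 25.3 CPM (adjusted p 0.847). The median log2 fold change of the 8 was -0.15.

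Among the other ligand genes Mag had 0 reads over all 10 samples, Omg 1, Lgi1 47 and Olfm1 457. Among the co-receptor genes Ngfr had 36 reads, Tnfrsf19 617, Lingo1 280, Lingo2 0, Lingo3 2027 and Lingo4 5. Lingo3, the most abundant of these, was at 19.6 ± 6.29 and 13.7 ± 2.77 CPM (heterozygote and knockout, SD, n = 5; log2 fold change -0.52, edgeR adjusted p 0.0999), and without heterozygote 4 it was called lower (-0.65, adjusted p 0.0292). These genes are given with their values in view. In all, 4 genes of the list had no read in any sample, where 3 counts, the limit that a count of 0 allows, correspond to no more than 0.384 CPM.

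Of 24 other genes that shape the endoplasmic reticulum or mark it for turnover, all tested, 2 were called, 1 in each direction, beside 18.9% of all tested genes. Reep5, which like the reticulons bends the membrane through hairpins and is abundant in heart muscle, was at 476 to 519 CPM in the heterozygotes and 368 to 415 CPM in the knockouts (log2 fold change -0.34, SE 0.0767, edgeR adjusted p 0.00676, over a range of 1.40e-05 to 0.0999). With the endothelial covariate the log2 fold change of Reep5 was -0.33 and the adjusted p 0.0999. Reep2, a scarce member of the same family, was at 1.37 ± 0.261 and 3.02 ± 0.998 CPM (SD, n = 5; log2 fold change 1.16, edgeR adjusted p 0.0130, over a range of 0.00449 to 0.0486). It had 258 reads over the 10 samples. The groups overlapped, with up to 1.72 CPM in the heterozygotes and as little as 1.56 CPM in the knockouts. Ktn1, an anchor protein of the membrane, was at 321 ± 56.1 and 341 ± 29.5 CPM (adjusted p 0.668). The median of the list was 0.11. Scaling by library totals gave 4 calls in this list.

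**Figure D3:**
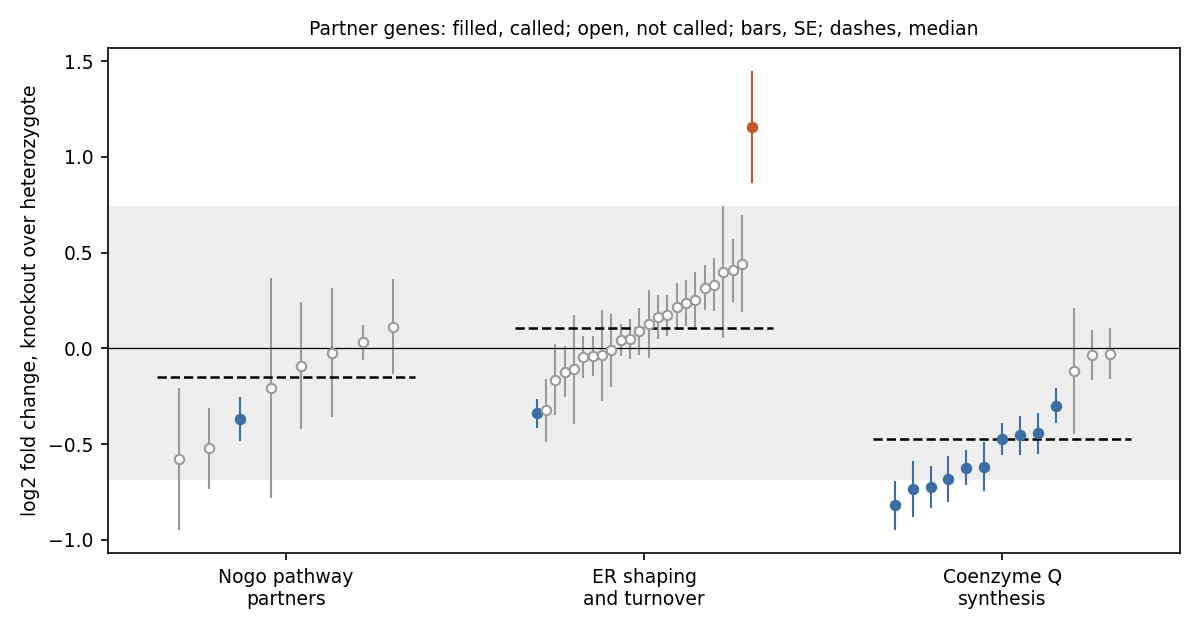
Log2 fold changes with SE for the tested genes of 3 partner lists (filled, called at an adjusted p below 0.05; open, not called; dashes, list median; grey band, the 5th to 95th percentile of all tested genes, from -0.685 to 0.736). The plot has 10 coenzyme Q genes filled on the lower side, and the other lists have 1 or 2 filled genes.

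Position was a further property that the choice of genes did not use. The nearest tested gene on each side of the 8 members, leaving out genes that overlap a member, gave 16 neighbours. Of these 3 were called, 1 higher and 2 lower (18.9% of all tested genes were called). Rtn4r and its neighbour Prodh, which encodes the mitochondrial proline dehydrogenase, were both lower in the knockout. Prodh lies 38.5 kb away at chr16:18071726-18089190 and was at 12.4 to 21.6 CPM in the heterozygotes and 6.73 to 7.94 CPM in the knockouts (log2 fold change -1.11, SE 0.161, edgeR adjusted p 0.000278). On the other side, Zdhhc8, 68.3 kb away, was at 38.1 ± 6.54 and 36.6 ± 2.21 CPM (SD, n = 5; log2 fold change -0.05, adjusted p 0.795), a value whose sign turned with library totals (0.03) and without heterozygote 2 (0.04).

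Rtn4ip1 faces Qrsl1, which encodes a subunit of the mitochondrial enzyme that forms glutaminyl-tRNA from a mischarged tRNA. The genes run in opposite directions, and 61 bases separate the GENCODE end of Qrsl1 from the RefSeq start of Rtn4ip1 (chr10:43901746-43901806). Qrsl1 was at 51.1 to 65.9 CPM in the heterozygotes and 33.4 to 48.3 CPM in the knockouts (log2 fold change -0.53, SE 0.110, edgeR adjusted p 0.00418, over a range of 0.000167 to 0.0870), beside the -0.44 of Rtn4ip1. With the endothelial covariate it was -0.48 for Qrsl1, with an adjusted p of 0.0870. The sequence between the genes is shown on the strand of Rtn4ip1 because both starts border it, with capitals on CCAAT in reverse.
Qrsl1 to Rtn4ip1: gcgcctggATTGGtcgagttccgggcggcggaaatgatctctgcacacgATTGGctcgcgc
It holds 2 such matches. Of 32851 windows of that length before a RefSeq start, 11% held at least 1 CCAAT on either strand and 1.08% at least 2. A match is a run of letters and not a site of binding. Aim1, 2.44 kb beyond the other end of Rtn4ip1, was scarce and was not called (log2 fold change -0.27, adjusted p 0.707).

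The third called neighbour, 1810048J11Rik, lies 127 kb from Rtn1 and was higher in the knockout (log2 fold change 0.77, SE 0.156, edgeR adjusted p 0.00354, over a range of 8.33e-05 to 0.0662). With the endothelial covariate 1810048J11Rik was at 0.72, with an adjusted p of 0.0662. Rps27a and Spnb2, the nearest tested genes that do not overlap Rtn4, lie 145 and 355 kb from it. They were not called (log2 fold changes of 0.10 and 0.23, adjusted p 0.645 and 0.135). The genes left out for overlap, Eml6 at Rtn4 and 2700081O15Rik at Rtn3, were not called either (log2 fold changes of 0.34 and 0.02, edgeR adjusted p 0.297 and 0.903). The same held for the neighbours of Rtn2, Rtn3, Rtn4rl1 and Rtn4rl2, at log2 fold changes of -0.80 to 0.30. The lowest is that of Fosb, a scarce gene next to Rtn2, which ran from -1.83 without knockout 4 (adjusted p 0.0536) to -0.41 without heterozygote 3 and became 0.11 with the endothelial covariate.

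**Figure D4:**
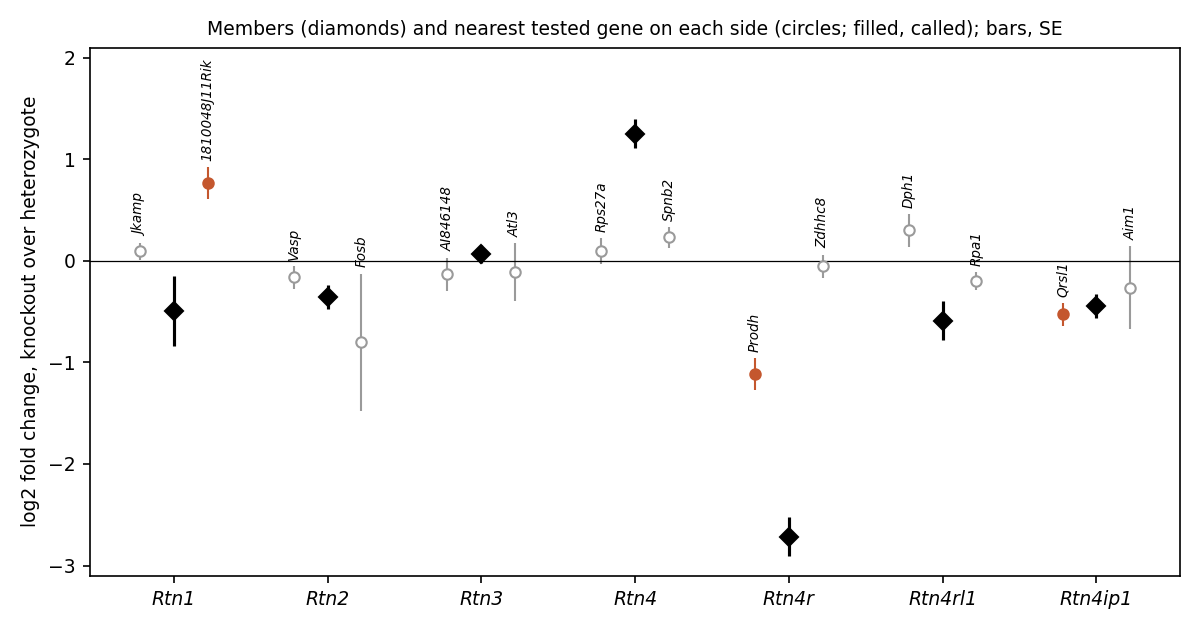
Log2 fold changes with SE of the 7 tested members (diamonds) and of the nearest tested gene on each side that does not overlap the member (circles, filled where called). Of the 3 called neighbours, Prodh next to Rtn4r and Qrsl1 next to Rtn4ip1 lie below 0 with their member. The third, 1810048J11Rik, lies above 0 (0.77) while its member Rtn1 lies below (-0.49). The neighbours of Rtn4 lie near 0.

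Likeness of pattern was measured as the root-mean-square difference between log2 levels over the 10 samples, each gene centred on its own mean, among 8363 tested genes at or above an average of 10 CPM. For Rtn4r the nearest were Rxrg, a retinoid receptor gene (0.467), the potassium channel gene Kcnd2 (0.469) and the kinase gene Wnk2 (0.520), where the median gene was at 1.39. Kcnd2 was at 17.3 to 34.5 CPM in the heterozygotes and 3.49 to 6.66 CPM in the knockouts. For Rtn4 the nearest were the prion protein gene Prnp (0.133), the ephrin gene Efna5 (0.148) and the kinase gene Prkci (0.186), with a median of 0.697. Prnp was at 80.9 to 114 CPM in the heterozygotes and 207 to 302 CPM in the knockouts.

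For Rtn4ip1 the nearest genes were the mitochondrial chaperone gene Dnaja3 (0.0527), the gene Dlst of the citric acid cycle (0.0608) and Uqcc (0.0644), with a median of 0.358. Rtn3 was nearest to Sephs1 (0.0479), Rtn2 to Anapc5 (0.0845) and Rtn4rl1 to Ucp3 (0.215). Rtn1 was nearest to Thsd1, Cmtm3 and Gimap4 (0.284, 0.299 and 0.308). These distances describe the same 10 samples from which the members were chosen and carry no test.

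Over 18 other settings Rtn4r stayed between -2.82 and -2.55 and Rtn4 between 1.15 and 1.38, and Rtn4ip1 between -0.50 and -0.36. The endothelial covariate gave -0.61 for Rtn2, in place of -0.36. Over all tested genes 1216 were called higher and 1025 lower, and with scaling by library totals 1684 and 760.

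**Figure D5:**
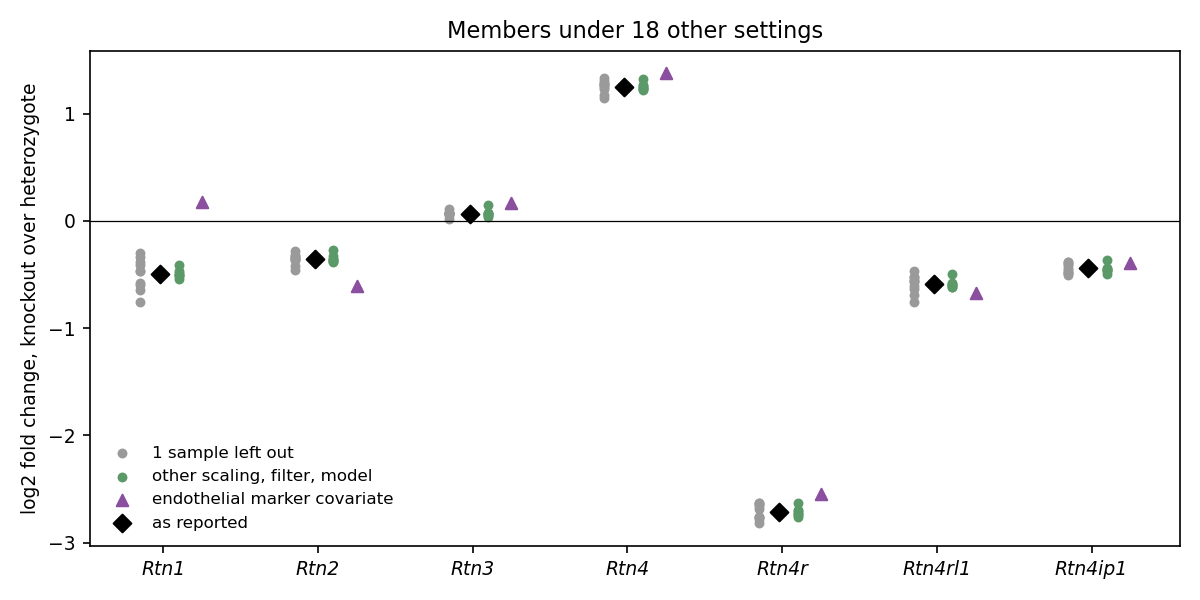
Log2 fold changes of the 7 tested members as reported (diamonds), with 1 sample left out (grey), with other scalings, filters or models (green) and with the endothelial marker covariate (triangles). Rtn4r and Rtn4 keep their place, from -2.82 to -2.55 and from 1.15 to 1.38, while Rtn1 crosses 0 with the covariate (0.18).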

How the data were processed

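The authors deposited whole-number read counts per gene, not normalised. Per the file headers they were made with featureCounts 1.5.1, with 4 threads and no other option, against a UCSC mm10 gene annotation; the submitters' processing notes name STAR 2.5.3a and Subread 1.5.2. With these defaults strand is ignored and reads that overlap several genes are left out. The deposited exon length per gene, in bases, served for RPKM. The table has 14 count columns, of which 4 match no sample here and were not used.

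Genes were kept with edgeR's filterByExpr (minimum count 10, minimum total 15), leaving 11870 of 23337. Counts were scaled with TMM and compared with edgeR 4.0.16 (R 4.3.3), quasi-likelihood F test without covariates, over all 10 samples, adjusted by Benjamini-Hochberg. Genes were called at an adjusted p below 0.05. SEs come from the F statistic of each fold change, and a prior count of 1 enters log2 CPM. Labels do not say more than that samples are biological replicates, and no replicate pair agreed within counting noise (chi-square per degree of freedom 10.8 to 37.5). Floors of 3 counts cover counting error only. On simulated counts of 11772 tested genes, 78.6% of 2-fold and 100% of 4-fold changes were called, with 2.76% false calls. These counts were drawn with the dispersions of the same fit, and 197 of the tested genes were changed. Smaller changes were not simulated, so the rates do not cover them.

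The members, the partner lists and the rules for named genes were chosen with earlier results of these data known. Results of 1 further list are not reported here. Named list genes are up to 6 called genes by size of change and the most abundant one not called. Neighbours are the nearest tested gene on each side that does not overlap the member, and 3 genes per member were taken by likeness. The alternatives were RLE, upper-quartile and library-total scaling, no filter, a replicate block, endothelial and Y-linked covariates, DESeq2 1.42.0 and leaving out each sample. Sequences are from RefSeq (GRCm38.p6), transcripts from GENCODE M21.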

Additional observations from a re-analysis of the deposited data

Results flagged for a closer look

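Over 70 groups of 5 samples (a named gene in a genotype), 3 had a sample far from the other 4: the gap to the nearest exceeded 0.71 of their range. Chance alone flags about 4. Rtn2 was at 6.36 log2 CPM (82.3 CPM) in knockout 5, above 5.99 (63.4 CPM) in the next highest knockout, a gap of 0.778 of the range. Tspan3 was at 8.56 log2 CPM (377 CPM) in knockout 2, below 8.73 in the next lowest (gap 0.766). Dph1, a neighbour of Rtn4rl1, was at 4.64 log2 CPM (24.8 CPM) in heterozygote 2, above 4.02 in the next highest (gap 0.746), and without that sample Dph1 was called higher in the knockout (edgeR adjusted p 0.0174, range over the settings 0.0174 to 0.462).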

How the results depend on the processing

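The count of calls over all genes was 889 with the endothelial covariate (465 higher, 424 lower), in place of 2241, and 1699 (without knockout 3) to 2258 with 1 sample left out. With that covariate the Nogo partners gave 0 calls, the neighbours 1 and the coenzyme Q list 7. The log2 fold changes of Rtn1 and Rtn2 were 0.18 and -0.61. The covariate was partly confounded with genotype, and the cause was not tested. Library totals gave 0 calls in the Nogo list and 4 in the endoplasmic reticulum list, and a level of 25.7 RPKM for Rtn3 in the knockout. The Y-linked covariate gave 0 calls in the Nogo list. With 1 sample left out the Nogo list held 0 to 1 calls. Samples with the same number did not deviate together throughout (correlations of -0.0604 to 0.185, and 2 of 5 heterozygotes correlated best with the knockout of their own number), so pairing by number was not shown. With the replicate block there were 2182 calls, 9 of 13 in the coenzyme Q list. DESeq2 called 2625 genes.

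Of 28 named partners and neighbours, 12 kept direction and side of the threshold in all 18 settings. Among 504 combinations of gene and setting, 15 lost a call, 1 gained one and 19 changed sign, all of the last in genes that were not called. The signs turned for Timm10 with upper quartiles (-0.0080), Zdhhc8 with library totals (0.032) and, with the endothelial covariate, for Coq10b (0.40), Fosb (0.11), AI846148 (0.074), Atl3 (0.22) and Slc43a3 (0.13). With 1 sample left out, log2 fold changes ran from -0.030 to 0.093 for Timm10, -0.11 to 0.044 for Zdhhc8, -0.36 to 0.13 for Coq10b, -0.26 to 0.0040 for Atl3, -0.0028 to 0.15 for Ktn1, -0.016 to 0.083 for Tspan3 and -0.49 to 0.17 for Aim1. Depth limits Rtn4rl2 and Rtn1.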
